A study of Mus musculus with 4 samples.

Results

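The lysosomal hydrolase and proton pump genes were 37 mouse genes, picked by their symbols from the 55418 entries of the gene list of the series. They comprised 3 lysosomal membrane glycoproteins, 10 glycosidases, 3 sulfatases, 4 sphingolipid hydrolases and activators, 3 proteins of cholesterol and lipid handling, 2 proteases with 1 thioesterase, 8 subunits of the proton pump, and a channel with 2 transcription factors. The rule itself used no measured value. All 37 had at least 1 unique molecular identifier (UMI, a tag that counts each captured RNA molecule once) in every library.

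Single-cell RNA sequencing had been performed on reporter-positive cells sorted from the thymus of C57BL/6 mice. MAFIA mice (genotype Csf1r-EGFP-NGFR/FKBP1A/TNFRSF6, 5 weeks old) carry EGFP and an inducible death receptor under the Csf1r promoter, which is active in monocytes and macrophages. Cd11cYFP mice (genotype Itgax-Venus, 9 weeks old) carry a yellow fluorescent protein under the Itgax promoter, which is active in dendritic cells (DCs) and in some macrophages. The mice were killed with CO2 and received no other treatment in the labels, and each reporter sets which cells enter its libraries. The methods give 1 female MAFIA mouse and 2 male Cd11cYFP mice, so reporter, age and sex cannot be told apart, whereas the files hold 2 MAFIA libraries. P-values below rest on 3 of these libraries. They measure the spread left after the offset of each library is taken out, in 1 fit of all cell classes.

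Lysosomes are acidic organelles in which enzymes break down material taken up from outside or delivered by autophagy. A vacuolar proton pump in the lysosomal membrane keeps the pH low, and most of the hydrolases work only in that acid. The transcription factors TFEB and TFE3 bind short E-box elements near many lysosomal genes and raise their transcription when they enter the nucleus. In the thymus most developing T cells die, and macrophages engulf and digest them, whereas DCs use mild lysosomal proteolysis to prepare antigens.

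Promoters were searched first, because these factors read the sequence CACGTG and its longer form TCACGTGA. Promoters of 31 of the 37 genes, 38 promoters in all, were found in the RefSeq table for GRCm38.p6, each spanning 250 bases before to 50 bases after a start site. Both are palindromes, so 1 search reads both strands, and every longer match is also counted as a short one. The short form was present in the promoters of 10 of the 31 genes (32.3%), beside 2187 of 27025 genes in the whole table (8.09%). The longer form was present in 4 of the 31 (12.9%), beside 304 of 27025 (1.12%). The 10 genes were Arsa, Atp6v0d1, Atp6v1a, Gaa, Gla, Glb1, Lamp1, Lgmn, Mcoln1 and Naglu. These are letters in a window and no measurement of binding.

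Shown are the promoter with the most copies (Lamp1, 4 copies), 3 promoters with the longer form (Gla, Mcoln1 and Atp6v0d1), and that of Ppt1, which lacked both motifs and belongs to the gene with the sharpest restriction to 1 class below. Capitals mark CACGTG in Lamp1 and TCACGTGA in Gla, Mcoln1 and Atp6v0d1. Positions count from 0 at the start site, with negative numbers before it. Copies of CACGTG began at -61, -45, -28 and -15 in Lamp1 (chr8:13158911-13159210, + strand), at -227 and -194 in Gla (chrX:134600956-134601255, - strand), at -71 and -45 in Mcoln1 (chr8:3500269-3500568, + strand), and at -3 in Atp6v0d1 (chr8:105566015-105566314, - strand). The Ppt1 promoter lies at chr4:122835977-122836276, + strand, and all these coordinates are on GRCm38.p6.
Lamp1: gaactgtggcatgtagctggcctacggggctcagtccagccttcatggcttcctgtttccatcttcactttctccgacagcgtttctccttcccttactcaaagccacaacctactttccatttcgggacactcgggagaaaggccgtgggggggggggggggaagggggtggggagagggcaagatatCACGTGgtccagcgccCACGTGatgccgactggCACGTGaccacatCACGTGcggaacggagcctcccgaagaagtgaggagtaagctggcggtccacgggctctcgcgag
Gla: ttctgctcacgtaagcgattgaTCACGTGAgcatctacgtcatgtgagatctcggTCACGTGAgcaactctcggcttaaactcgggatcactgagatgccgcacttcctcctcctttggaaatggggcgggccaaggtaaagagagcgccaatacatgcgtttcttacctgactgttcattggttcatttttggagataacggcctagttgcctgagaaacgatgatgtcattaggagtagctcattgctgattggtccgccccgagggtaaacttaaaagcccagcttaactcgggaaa
Mcoln1: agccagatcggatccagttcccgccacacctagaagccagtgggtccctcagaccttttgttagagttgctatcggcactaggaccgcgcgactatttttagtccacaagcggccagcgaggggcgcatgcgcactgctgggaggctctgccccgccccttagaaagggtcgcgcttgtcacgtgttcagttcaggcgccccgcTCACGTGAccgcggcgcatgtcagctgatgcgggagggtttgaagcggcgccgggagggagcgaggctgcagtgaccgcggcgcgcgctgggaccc
Atp6v0d1: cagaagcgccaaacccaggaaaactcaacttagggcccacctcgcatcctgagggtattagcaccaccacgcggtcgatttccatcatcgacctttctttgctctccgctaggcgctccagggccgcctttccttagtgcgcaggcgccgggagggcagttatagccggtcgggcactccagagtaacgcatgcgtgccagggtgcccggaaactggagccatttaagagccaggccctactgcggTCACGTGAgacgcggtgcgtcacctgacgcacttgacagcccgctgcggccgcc
Ppt1: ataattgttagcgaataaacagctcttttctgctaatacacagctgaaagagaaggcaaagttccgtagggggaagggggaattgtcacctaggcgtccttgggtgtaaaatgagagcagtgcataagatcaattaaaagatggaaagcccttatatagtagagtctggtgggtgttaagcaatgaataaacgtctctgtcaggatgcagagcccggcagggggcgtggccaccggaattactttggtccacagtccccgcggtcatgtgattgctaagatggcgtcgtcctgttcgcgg

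Between 26876378 and 185882793 UMIs were counted per library over 5500 to 9737 barcodes. MAFIA replicate 1 entered no class comparison, because the rule that picked the 37 genes named only the other 3 libraries. It was also shallow (median 3980.5 UMIs per barcode, beside 15759 to 17493 in the other 3). When all 4 libraries were clustered together, 97.8% of its cells fell into 1 cluster. The other 3 libraries gave 23549 cells after filtering, in 28 clusters built without the 37 genes. Marker genes placed 20 clusters with 22351 cells in 9 classes, while 979 cells in mixed clusters and 219 in an unnamed remainder were left out. Any 2 libraries shared 10 to 25 cell barcodes. A UMI of the yellow fluorescent protein was present in 71.8 and 70.7% of barcodes of Cd11cYFP replicates 1 and 2, beside 0.109 and 0.221% in MAFIA replicates 1 and 2. An EGFP UMI was present in only 0.836 and 2.14% of barcodes of MAFIA replicates 1 and 2, beside 0.247 and 0.0924% in Cd11cYFP replicates 1 and 2, so the EGFP sort is hardly visible in the transcripts. Each class is only like the cell type it is named after, and the ending "-like" is left out below.

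The classes were Timd4+ macrophages (945 cells), Cx3cr1+ macrophages (1885), monocytes (1174), Xcr1+ DCs (4777), Cd209a+ DCs (2941), Ccr7+ DCs (4961), plasmacytoid DCs (pDCs, 1268), B cells (3197) and thymocytes (1203). Some classes pooled unlike clusters. Histone or cell division genes led clusters of Xcr1+ DCs (649 and 421 cells) and of Cd209a+ DCs (385 cells). Jchain and immunoglobulin genes led a cluster of B cells (586 cells). The part of these clusters in the comparisons was not tested. UMIs were summed per class and library, and levels are given as TMM-normalised counts scaled to library totals of 1e+06 (CPM) in MAFIA replicate 2, Cd11cYFP replicate 1 and Cd11cYFP replicate 2, in that order. UMIs count 3' ends and were not divided by gene length. Marker sums are plain CPM without TMM. The summed markers common to macrophages lay between 13541 and 15688 CPM in the Timd4+ class. They lay between 11462 and 15351 CPM in the Cx3cr1+ class, between 3167 and 5425 CPM in monocytes and between 39.3 and 173.0 CPM in Xcr1+ and Cd209a+ DCs. The monocyte markers summed to 2495 to 8231 CPM in monocytes, beside 5469 to 7598 CPM in pDCs and up to 2978 CPM in B cells. In monocytes of Cd11cYFP replicates 1 and 2 they reached 4375 and 2495 CPM, below the common macrophage markers (5425 and 4674 CPM). In Cd209a+ DCs of Cd11cYFP replicate 1 the Cd209a+ DC markers summed to 823 CPM, beside 2022 CPM of the monocyte markers. Monocytes carried 3 further signs. S100a9 and S100a8, which also mark neutrophils, led their cluster. The neutrophil markers summed to 2043 CPM in MAFIA replicate 2, beside 1.25 and 11.5 CPM in Cd11cYFP replicates 1 and 2. In Cd11cYFP replicate 2, which had only 180 monocytes, the Cx3cr1+ macrophage markers reached 643.7 CPM, beside 218.7 to 341.3 CPM in the other 2 libraries.

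Macrophages devoted the largest share of their transcripts to these 37 genes. In Timd4+ macrophages they made up 1.40, 1.62 and 1.46% of all UMIs (1.49 ± 0.11%, SD, n = 3 libraries), and in Cx3cr1+ macrophages 1.43, 1.40 and 1.35% (1.39 ± 0.04%). The ranges of the 2 macrophage classes overlapped. Monocytes followed with 0.839, 0.817 and 0.960% (0.872 ± 0.077%), and every macrophage value lay above every monocyte value. Xcr1+ DCs (0.688 ± 0.020%) and pDCs (0.612 ± 0.036%) came next and did not overlap each other, then Ccr7+ DCs (0.428 ± 0.024%) and Cd209a+ DCs (0.411 ± 0.011%), which overlapped. B cells (0.157 ± 0.008%) and thymocytes (0.154 ± 0.011%) were lowest and also overlapped. The summed share is a description and was not tested.

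**Figure D1:**
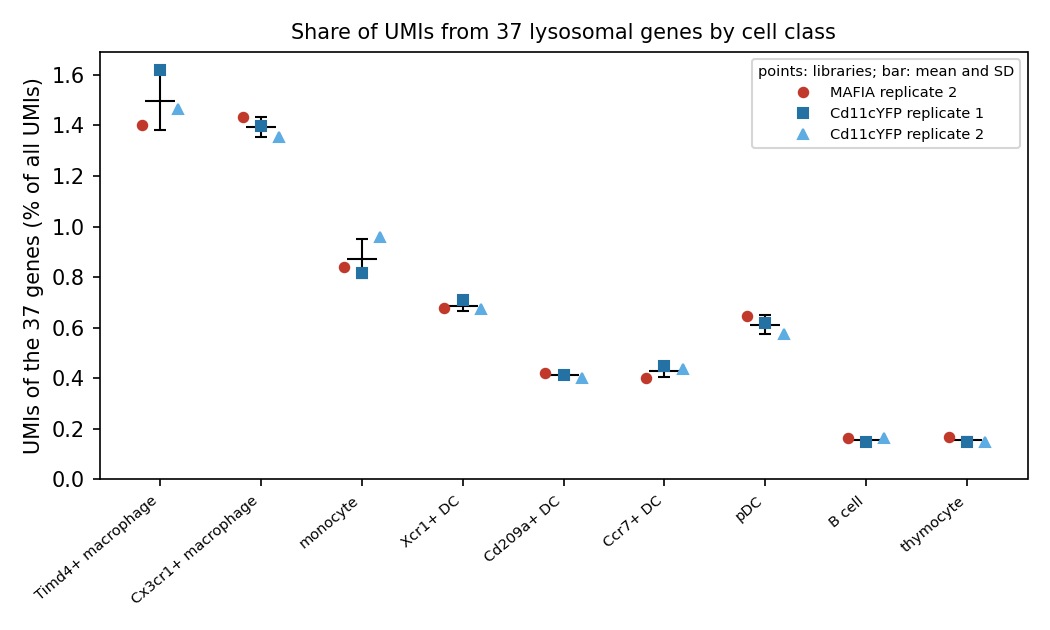
UMIs of the 37 genes as a percentage of all UMIs (y axis) in each of 9 cell classes (x axis), with a point for each library, a horizontal bar for the mean and whiskers for the SD (n = 3). Both macrophage classes sit between 1.35 and 1.62%, above monocytes at 0.817 to 0.960%, while B cells and thymocytes sit near 0.15%.

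Single cells placed the classes in a similar order at an equal depth. After each cell had been thinned to 3000 UMIs, which left out no cell, the median Timd4+ macrophage held 41, 49 and 42 UMIs of these genes in the 3 libraries and the median Cx3cr1+ macrophage 43, 42 and 42. Medians were 24, 24 and 27 in monocytes, 20, 21 and 20 in Xcr1+ DCs, 19, 19 and 17 in pDCs, 11 to 13 in Ccr7+ and Cd209a+ DCs and 4 or 5 in B cells and thymocytes. Macrophages therefore held several times the level of lymphoid cells, whose value also contains any free RNA taken up into droplets. Cells of a class differed beyond counting error, since the SD among Timd4+ macrophages was 12.8, 13.3 and 13.0 UMIs, whereas a Poisson count of the same mean would give 6.5, 7.0 and 6.6. The typical macrophage showed 14 to 16 of the 37 genes at this depth, beside 4 in B cells and thymocytes.

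A few genes carried most of these UMIs, and which ones they were depended on the class. Psap, the precursor of the saposins that help sphingolipid hydrolases reach their substrates, supplied 26.8 ± 1.4% of the UMIs of the 37 genes in Timd4+ macrophages and 34.4 ± 2.0% in Cx3cr1+ macrophages. It also ranked first in monocytes, pDCs and Xcr1+ DCs (33.3 ± 2.9%), where Ppt1 followed with 21.2 ± 1.7%. Gm2a ranked first in Cd209a+ DCs (22.0 ± 3.1%) and Npc2 in Ccr7+ DCs (28.5 ± 5.6%).

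Ordering the 9 classes by mean level placed 28 of the 37 genes highest in a macrophage class, 17 of them in Timd4+ and 11 in Cx3cr1+ macrophages, beside 21.5% of the 16247 genes tested. The other 9 peaked elsewhere, namely Arsb, Fuca1, Gusb and Ppt1 in Xcr1+ DCs, Gm2a in Cd209a+ DCs, Npc2 in Ccr7+ DCs, Atp6v1h in pDCs, Atp6v0c in monocytes and Tfeb in B cells. In 15 genes the 3 values of the top class did not overlap any value of another class, a share near the 37.2% of all genes for which this held. B cells or thymocytes were lowest for 29 genes, beside 28.2% of all genes. The heat map of class means shows these groups by role.

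**Figure D2:**
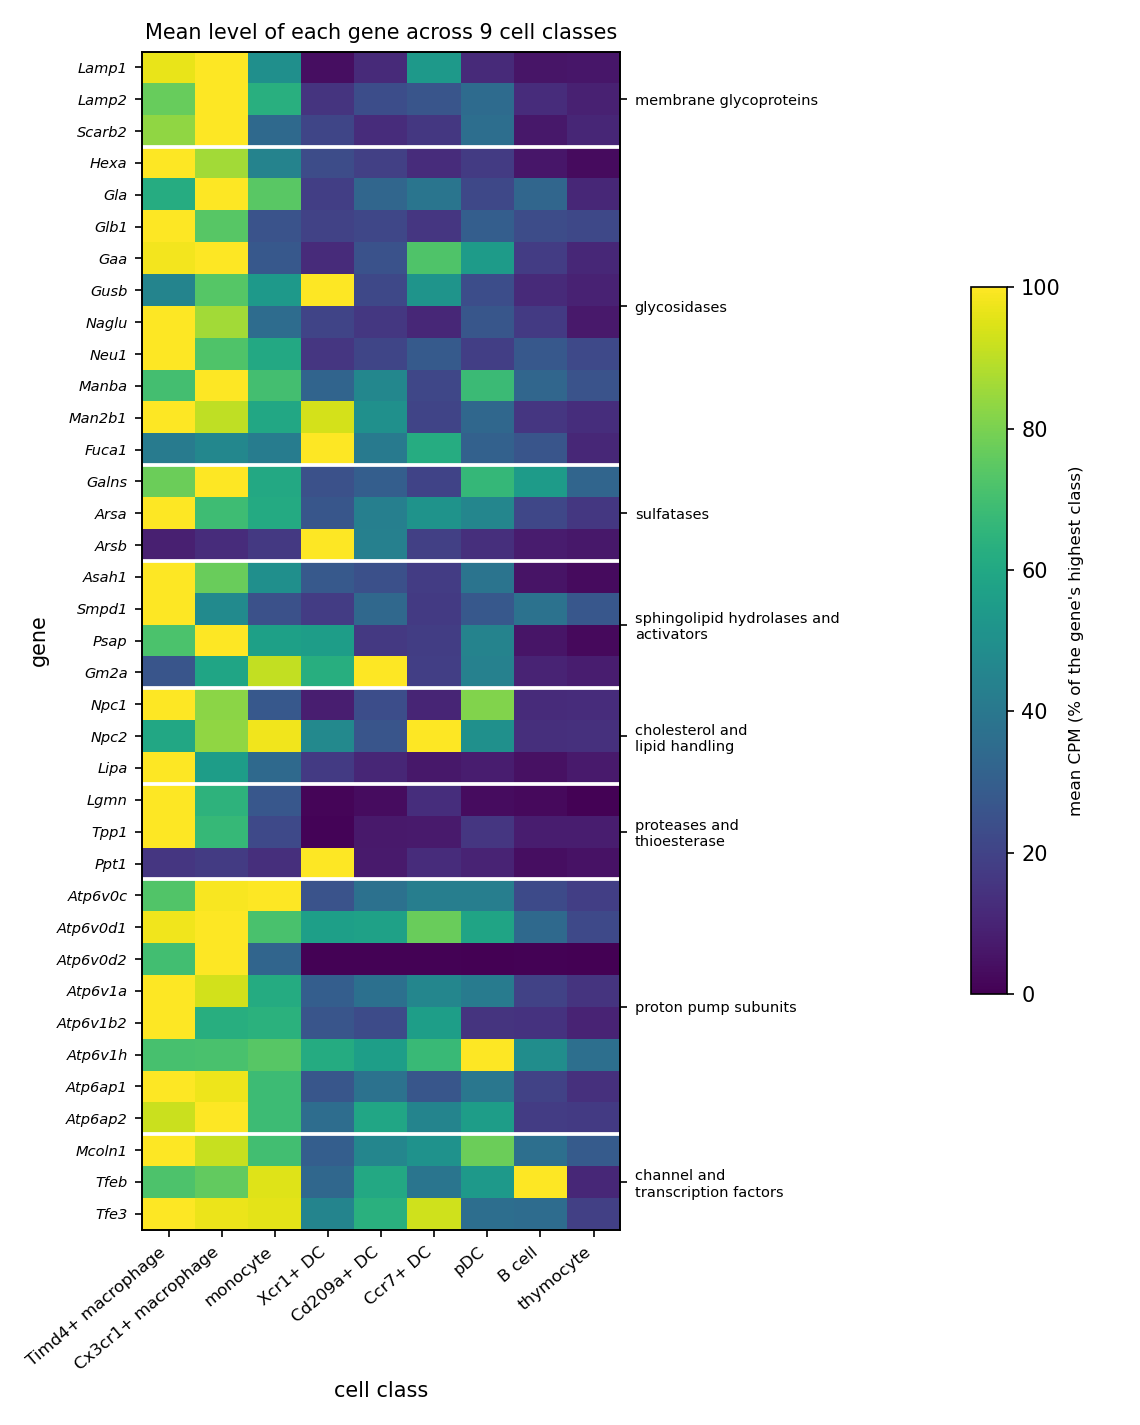
Mean level of each gene (rows, grouped by role) in each cell class (columns), as a percentage of the gene's own highest class mean in CPM (n = 3 libraries per mean). Most rows are brightest in the 2 macrophage columns at the left, while Ppt1, Arsb, Fuca1 and Gusb are brightest in Xcr1+ DCs.

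Both macrophage classes were first compared with the classical DCs (the mean of Xcr1+, Cd209a+ and Ccr7+ DCs). Levels of single genes are first set beside Xcr1+ and Cd209a+ DCs, but Ccr7+ DCs enter every fold change. By edgeR's quasi-likelihood test with Benjamini-Hochberg adjustment over 16247 genes, 33 of the 37 genes were higher in macrophages and 4 were lower, with a median log2 fold change of 1.61 over the 37, beside -0.05 over all genes. Of all genes tested, 32.9% were called higher and 34.9% lower (67.8% in all), so a call in either direction was common, whereas the split of the 37 was not that of all genes. All 8 proton pump subunits, all 3 membrane glycoproteins, 9 of 10 glycosidases and the channel with both transcription factors were among the higher ones. The DC side is a mean, so a call need not hold against each DC class. Gusb counted as higher, although its Xcr1+ DC values (lowest 313.4 CPM) lay above every macrophage value (highest 297.6 CPM). Atp6v1h also counted as higher, although Timd4+ macrophages (mean 57.2 CPM) and Ccr7+ DCs (mean 54.8 CPM) overlapped. Without Cd11cYFP replicate 2 the lower genes numbered 2.

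The largest difference was in Atp6v0d2, an alternative d subunit of the membrane sector of the pump that is known from osteoclasts and macrophages. Its level was 46.6, 43.3 and 60 CPM in Timd4+ macrophages and 109.9, 62.6 and 42.9 CPM in Cx3cr1+ macrophages, against 0.977, 0.146 and 0.338 CPM in Xcr1+ DCs and 0.532, 0.324 and 0.34 CPM in Cd209a+ DCs (log2 fold change 7.33 ± 0.52 (SE), edgeR adjusted p = 2.7e-11). The groups did not overlap, and no class other than the macrophages and monocytes exceeded 1 CPM. Thinned to 3000 UMIs per cell, 10.6 ± 3.0% of Timd4+ and 13.4 ± 4.7% of Cx3cr1+ macrophages had an Atp6v0d2 UMI (20.8 and 35.9% unthinned), beside 0.159 ± 0.063% of B cells (0.542% unthinned). Its ubiquitous counterpart Atp6v0d1 reached 168, 164 and 160.4 CPM in Timd4+ macrophages and 173, 166 and 164 CPM in Cx3cr1+ macrophages, against 99.96, 99.4 and 84.2 CPM in Xcr1+ DCs and 94.6, 104 and 89.6 CPM in Cd209a+ DCs, a far smaller step (log2 fold change 0.66 ± 0.07 (SE), edgeR adjusted p = 1.1e-08).

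Proteases followed. Tpp1, which removes tripeptides from the ends of proteins, stood at 356, 375 and 376 CPM in Timd4+ and 289, 222 and 232 CPM in Cx3cr1+ macrophages, against 4.1, 5.38 and 3.27 CPM in Xcr1+ and 23.9, 30.6 and 23.1 CPM in Cd209a+ DCs (log2 fold change 4.43 ± 0.09 (SE), edgeR adjusted p = 2.6e-20). Lgmn (legumain, an asparaginyl endopeptidase, GRCm39 chr12:102359122-102414682, - strand) stood at 1291, 2034 and 1445 CPM in Timd4+ and 758, 1364 and 955 CPM in Cx3cr1+ macrophages, against 20.2, 28.8 and 20.6 CPM in Xcr1+ and 42.9, 70.4 and 42.5 CPM in Cd209a+ DCs (log2 fold change 4.33 ± 0.14 (SE), edgeR adjusted p = 1.2e-17). Ccr7+ DCs averaged 26.0 CPM of Tpp1 and 207.8 CPM of Lgmn. In both genes the lowest macrophage value was several times the highest DC value. Tpp1 in Xcr1+ DCs lay below its level in B cells (28.8, 29.9 and 31.9 CPM), and in Cd209a+ DCs it overlapped that level. Lgmn in Xcr1+ DCs likewise lay below its level in B cells (41, 44.9 and 35.1 CPM).

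Lamp1, an abundant glycoprotein of the lysosomal limiting membrane, showed the same direction. It reached 1325, 1274 and 1267 CPM in Timd4+ and 1483, 1233 and 1286 CPM in Cx3cr1+ macrophages, against 40.6, 54.2 and 47.1 CPM in Xcr1+ and 192, 141 and 145 CPM in Cd209a+ DCs (log2 fold change 2.90 ± 0.10 (SE), edgeR adjusted p = 3.5e-17). Xcr1+ DCs were the lowest of all 9 classes for Lamp1, below B cells (80.1, 72.6 and 79.1 CPM) in every library, and 10.6 ± 2.5% of them had a Lamp1 UMI at equal depth (51.8% unthinned), beside 20.3 ± 0.5% of B cells (58.4% unthinned). Its relative Lamp2 differed less, at 286, 355 and 327 CPM in Timd4+ and 391, 454 and 419 CPM in Cx3cr1+ macrophages, against 65.4, 63.2 and 63.6 CPM in Xcr1+ and 97.4, 101 and 99.5 CPM in Cd209a+ DCs (log2 fold change 2.05 ± 0.08 (SE), edgeR adjusted p = 1.4e-15).

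The channel and the 2 regulators were modestly higher in macrophages. Mcoln1 (mucolipin, a lysosomal cation channel) had 17.7, 18.6 and 21.3 CPM in Timd4+ and 14.1, 21.7 and 16.9 CPM in Cx3cr1+ macrophages, against 5.23, 7.03 and 4.9 CPM in Xcr1+ and 7.99, 9.39 and 9.03 CPM in Cd209a+ DCs (log2 fold change 1.21 ± 0.12 (SE), edgeR adjusted p = 5.3e-09). Tfe3 had 61.7, 67.4 and 58.3 CPM in Timd4+ and 62.7, 62.6 and 56.6 CPM in Cx3cr1+ macrophages, against 30.3, 27.2 and 27.3 CPM in Xcr1+ and 42.5, 37.3 and 39 CPM in Cd209a+ DCs (log2 fold change 0.62 ± 0.06 (SE), edgeR adjusted p = 4.7e-09). Tfeb had 35.5, 38.7 and 30.8 CPM in Timd4+ and 39.1, 33.1 and 38.2 CPM in Cx3cr1+ macrophages, against 13.9, 16.3 and 18.1 CPM in Xcr1+ and 22.8, 37.2 and 27.8 CPM in Cd209a+ DCs (log2 fold change 0.79 ± 0.09 (SE), edgeR adjusted p = 9.6e-08). Macrophage values of Mcoln1 and Tfe3 overlapped those of neither Xcr1+ nor Cd209a+ DCs, while for Tfeb they overlapped those of Cd209a+ DCs. Ccr7+ DCs overlapped macrophages in Tfe3 (mean 57.8 CPM) but not in Mcoln1 or Tfeb. Tfeb was highest in B cells (55.4, 44.5 and 45.6 CPM) and monocytes (48.5, 46.3 and 43.3 CPM), whose ranges overlapped, and lowest in thymocytes (5.15, 4.71 and 6.13 CPM).

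The 4 genes that were lower in macrophages belonged to different pathways. Arsb, a sulfatase that acts on dermatan and chondroitin sulfate, had 18.5, 12.9 and 17.5 CPM in Timd4+ and 17.2, 23.3 and 29.8 CPM in Cx3cr1+ macrophages, against 183, 171 and 196 CPM in Xcr1+ and 101, 53 and 86.1 CPM in Cd209a+ DCs (log2 fold change -2.02 ± 0.14 (SE), edgeR adjusted p = 2.5e-11). Fuca1, which removes fucose from glycoproteins and glycolipids, had 132, 119 and 118 CPM in Timd4+ and 145, 133 and 133 CPM in Cx3cr1+ macrophages, against 283, 295 and 308 CPM in Xcr1+ and 109, 126 and 131 CPM in Cd209a+ DCs (log2 fold change -0.53 ± 0.07 (SE), edgeR adjusted p = 4.5e-07). Arsb in Xcr1+ and Cd209a+ DCs lay above every macrophage value, whereas in Ccr7+ DCs (mean 34.6 CPM) it overlapped Cx3cr1+ macrophages. Fuca1 lay above every macrophage value in Xcr1+ DCs and in Ccr7+ DCs (mean 182.5 CPM). Its Cd209a+ DC values overlapped those of Timd4+ macrophages.

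Ppt1, a thioesterase that removes palmitate from proteins (GRCm39 chr4:122730010-122754948, + strand), was the gene most restricted to 1 class. It reached 1544, 1785 and 1809 CPM in Xcr1+ DCs, and no other class exceeded 344.2 CPM, the highest Timd4+ macrophage value, so that the Xcr1+ DC mean was 5.75 times the next class mean. At equal depth 96.4 ± 1.8% of Xcr1+ DCs had a Ppt1 UMI (99.9% unthinned), beside 15.6 ± 0.9% of B cells (49.7% unthinned). Levels were 184, 344 and 289 CPM in Timd4+ and 235, 329.7 and 329 CPM in Cx3cr1+ macrophages, against 76.7, 127 and 159 CPM in Cd209a+ DCs and a mean of 218.6 CPM in Ccr7+ DCs. The averaged test against the classical DCs, with Xcr1+ DCs above and these classes below the macrophage means, thus gave only a small value (log2 fold change -0.32 ± 0.13 (SE), edgeR adjusted p = 0.0286). That call was lost without MAFIA replicate 2 (-0.23, edgeR adjusted p = 0.0731), without Cd11cYFP replicate 2 (-0.25, edgeR adjusted p = 0.239) and with likely doublets removed (-0.03, edgeR adjusted p = 0.843). Cap1 overlaps Ppt1 on the opposite strand and had 43773 UMIs beside 238925 for Ppt1. The strand setting of the counting is not given in the sources used here, so reads of the 2 genes cannot be told apart.

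Gm2a, the activator protein that presents GM2 ganglioside to beta-hexosaminidase, was highest in Cd209a+ DCs at 759, 1040.2 and 928 CPM and in monocytes at 807, 899 and 769 CPM, whose ranges overlapped. It had 245, 228 and 247 CPM in Timd4+ and 520.0, 522 and 562 CPM in Cx3cr1+ macrophages, against 385, 741 and 579.6 CPM in Xcr1+ DCs. Ccr7+ DCs, which also enter the test, averaged 170.3 CPM and lay below every macrophage value. Macrophages differed little from the mean of the classical DCs (log2 fold change -0.30 ± 0.11 (SE), edgeR adjusted p = 0.0158). Without Cd11cYFP replicate 1 the difference was -0.15 (edgeR adjusted p = 0.348), and without Cd11cYFP replicate 2 it was -0.30 (edgeR adjusted p = 0.106), so the call rested on these libraries. Hexa, the enzyme subunit that Gm2a serves, showed another order, with 747, 595 and 574 CPM in Timd4+ and 645, 507 and 499.6 CPM in Cx3cr1+ macrophages, against 189.7, 127 and 130.3 CPM in Xcr1+ and 151, 106 and 104 CPM in Cd209a+ DCs.

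**Figure D3:**
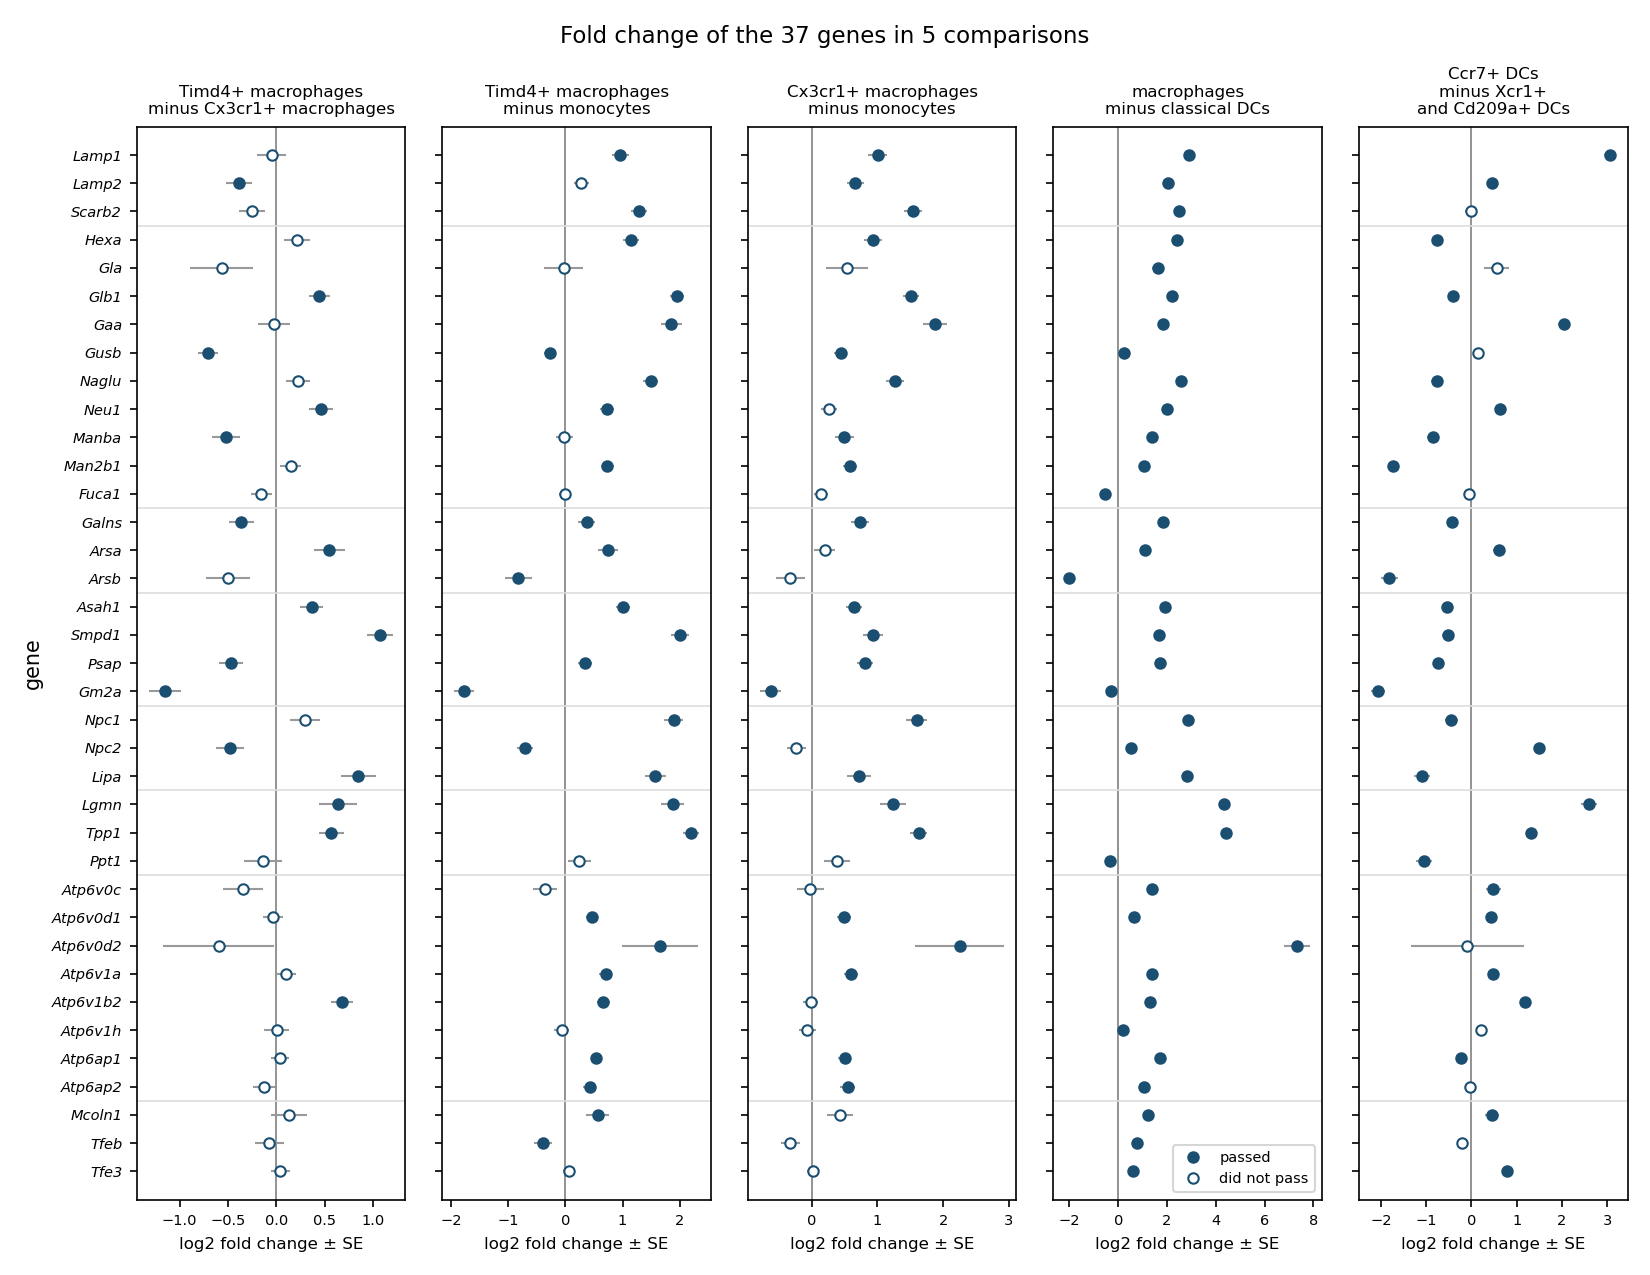
Log2 fold change with its SE (x axis) of each of the 37 genes (y axis, grouped by role) in 5 comparisons of cell classes, filled where the edgeR adjusted p was under 0.05. In macrophages minus classical DCs nearly all points lie right of 0, while in Timd4+ minus Cx3cr1+ macrophages they lie on both sides, from -1.15 for Gm2a to 1.07 for Smpd1.

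The 2 macrophage classes were then compared with each other. Here 9 of the 37 genes were higher in Timd4+ than in Cx3cr1+ macrophages, 7 were lower and 21 did not pass, beside 14.4% of all genes called higher and 18.8% called lower. The median log2 fold change of the 37 was -0.02, beside -0.05 over all genes, so as a list they did not lean to either class. Counts of higher genes fell to 5 without Cd11cYFP replicate 2, and those of lower genes to 4 when either Cd11cYFP replicate was left out. The classes also shared each other's markers, since the Timd4+ list summed to 4813 to 6691 CPM in Timd4+ and 1021 to 1234 CPM in Cx3cr1+ macrophages, and the Cx3cr1+ list to 842 to 1048 CPM in Timd4+ and 1542 to 1948 CPM in Cx3cr1+ macrophages. The part of this sharing in the differences was not tested.

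Among the genes that were higher in Timd4+ macrophages were enzymes of lipid and protein digestion. Smpd1 (acid sphingomyelinase, which cleaves sphingomyelin to ceramide) had 36.4, 36.1 and 32.1 CPM in Timd4+ macrophages, against 17.2, 19 and 13.8 CPM in Cx3cr1+ macrophages (log2 fold change 1.07 ± 0.14 (SE), edgeR adjusted p = 1.8e-06). Lipa (lysosomal acid lipase, which frees cholesterol from its esters) had 428, 416 and 416 CPM in Timd4+ macrophages, against 244, 212 and 245 CPM in Cx3cr1+ macrophages (log2 fold change 0.85 ± 0.18 (SE), edgeR adjusted p = 7.6e-04). Neither gene had overlapping values, and both were higher in Timd4+ macrophages than in any other class. Lgmn was also higher (0.64 ± 0.20 (SE), edgeR adjusted p = 0.0149, levels given above), with the Timd4+ value above the Cx3cr1+ value within each library although the ranges overlapped. That call was lost without Cd11cYFP replicate 1 (0.68, edgeR adjusted p = 0.117).

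Atp6v1b2, the B subunit of the catalytic sector of the pump, was the only 1 of 8 pump subunits to pass. It had 239, 213 and 199 CPM in Timd4+ macrophages, against 159, 125 and 123 CPM in Cx3cr1+ macrophages, without overlap (log2 fold change 0.68 ± 0.11 (SE), edgeR adjusted p = 5.1e-05). Its partner in that sector, Atp6v1a, had 160.3, 189 and 160.4 CPM in Timd4+ macrophages, against 159.7, 169.5 and 146 CPM in Cx3cr1+ macrophages (log2 fold change 0.10 ± 0.11 (SE), edgeR adjusted p = 0.514). The remaining genes that passed as higher in Timd4+ macrophages were Tpp1 (0.57), Arsa (0.55), Neu1 (0.46), Glb1 (0.44) and Asah1 (0.37, all log2 fold changes), which cut peptides, sulfatide, sialic acid, galactose and ceramide. Values of the macrophage classes overlapped for Glb1 and Asah1 but not for Tpp1, Arsa and Neu1.

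Genes that were lower in Timd4+ macrophages included glycosidases and lipid carriers. Gm2a had 245, 228 and 247 CPM in Timd4+ macrophages, against 520.0, 522 and 562 CPM in Cx3cr1+ macrophages (log2 fold change -1.15 ± 0.17 (SE), edgeR adjusted p = 9.5e-06). Gusb (beta-glucuronidase) had 175, 141 and 157 CPM in Timd4+ macrophages, against 298, 216 and 262 CPM in Cx3cr1+ macrophages (log2 fold change -0.71 ± 0.10 (SE), edgeR adjusted p = 8.9e-06). In both genes the values of the classes did not overlap. Manba (beta-mannosidase) had 14.5, 17.6 and 15.1 CPM in Timd4+ macrophages, against 24.9, 21.2 and 21.2 CPM in Cx3cr1+ macrophages (log2 fold change -0.52 ± 0.14 (SE), edgeR adjusted p = 0.00662), and this call was lost without MAFIA replicate 2 (-0.37, edgeR adjusted p = 0.156) and without Cd11cYFP replicate 2 (-0.52, edgeR adjusted p = 0.0824).

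Npc2, which carries cholesterol inside the lysosome and hands it to the membrane protein NPC1, had 1017, 868 and 906 CPM in Timd4+ macrophages, against 1325, 1348 and 1212 CPM in Cx3cr1+ macrophages (log2 fold change -0.47 ± 0.14 (SE), edgeR adjusted p = 0.0133). The call was lost without Cd11cYFP replicate 1 (-0.39, edgeR adjusted p = 0.185) and without Cd11cYFP replicate 2 (-0.50, edgeR adjusted p = 0.123). Npc1 itself did not pass, with a log2 fold change of 0.30 ± 0.16 (SE), edgeR adjusted p = 0.163. Psap, the most abundant of the 37, had 3498, 3746 and 3091 CPM in Timd4+ macrophages, against 5272, 4462 and 4682 CPM in Cx3cr1+ macrophages without overlap (log2 fold change -0.47 ± 0.13 (SE), edgeR adjusted p = 0.00527).

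Between the macrophage classes 1 of the 3 membrane glycoproteins passed, while the channel and the regulators did not. Scarb2 did not pass, although its Cx3cr1+ values (lowest 311.5 CPM) lay above its Timd4+ values (highest 294.0 CPM). Values of Lamp2 did not overlap either. Lamp2 passed as lower (log2 fold change -0.39 ± 0.13 (SE), edgeR adjusted p = 0.0257), but not without Cd11cYFP replicate 1 (-0.39, edgeR adjusted p = 0.120) or without Cd11cYFP replicate 2 (-0.40, edgeR adjusted p = 0.175). Lamp1 (log2 fold change -0.05 ± 0.15 (SE), edgeR adjusted p = 0.85), Tfeb (-0.07 ± 0.15 (SE), edgeR adjusted p = 0.764), Tfe3 (0.04 ± 0.09 (SE), edgeR adjusted p = 0.845), Mcoln1 (0.13 ± 0.19 (SE), edgeR adjusted p = 0.634) and Atp6v0d1 (-0.03 ± 0.10 (SE), edgeR adjusted p = 0.868) did not pass. These standard errors leave small differences undetected. Atp6v0d2 (log2 fold change -0.60 ± 0.57 (SE), edgeR adjusted p = 0.472) did not pass either. Its Cx3cr1+ value was above its Timd4+ value in MAFIA replicate 2 and Cd11cYFP replicate 1 but below it in Cd11cYFP replicate 2, without which it passed as lower in Timd4+ macrophages (-0.87, edgeR adjusted p = 0.0257). Galns, a sulfatase of keratan sulfate, completed the lower genes (-0.36).

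Macrophages were also set against monocytes, from which some of them can arise. Against monocytes, Timd4+ macrophages had 24 of the 37 genes higher and 5 lower (21.9% of all genes were called higher and 23% lower), with a median log2 fold change of 0.56, beside -0.00 over all genes. Cx3cr1+ macrophages had 23 higher and 1 lower (15.7% and 13.1% of all genes), with a median of 0.55, beside 0.05 over all genes. The 2 comparisons share their monocyte samples, and each also shares macrophage samples with the comparisons above. Lower genes numbered 2 without Cd11cYFP replicate 2 in the Timd4+ comparison and 3 without Cd11cYFP replicate 1, and 0 without Cd11cYFP replicate 1 in the Cx3cr1+ comparison. Leaving out the 8 monocytes with 3 or more UMIs of S100a8, S100a9 and Retnlg, an alternative chosen after seeing the data, left all 4 counts as they were.

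Tpp1 and Npc1 were higher in both macrophage classes than in monocytes. Tpp1, at 69.1, 84.2 and 89.3 CPM in monocytes, was higher in Timd4+ macrophages (log2 fold change 2.197 ± 0.14 (SE), edgeR adjusted p = 2.8e-11) and in Cx3cr1+ macrophages (1.63 ± 0.14 (SE), edgeR adjusted p = 1.4e-08). Npc1, the membrane transporter that exports cholesterol from the lysosome, had 194, 228 and 227 CPM in Timd4+ and 202, 165 and 168 CPM in Cx3cr1+ macrophages, against 55.3, 51 and 71.2 CPM in monocytes. Its log2 fold changes were 1.89 ± 0.17 (SE), edgeR adjusted p = 5.1e-09 for Timd4+ macrophages and 1.60 ± 0.17 (SE), edgeR adjusted p = 3.0e-07 for Cx3cr1+ macrophages. No macrophage value of either gene overlapped a monocyte value.

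Of the 10 glycosidases, 6 were higher in Timd4+ and 7 in Cx3cr1+ macrophages than in monocytes. Glb1 (beta-galactosidase) had 86.3, 68.4 and 71.3 CPM in Timd4+ macrophages, against 19.3, 19.7 and 18.7 CPM in monocytes (log2 fold change 1.96 ± 0.12 (SE), edgeR adjusted p = 2.0e-11). Gaa (acid alpha-glucosidase, which degrades glycogen) had 75.8, 84.5 and 64.5 CPM in Cx3cr1+ macrophages, against 18.1, 20.7 and 23 CPM in monocytes (log2 fold change 1.88 ± 0.18 (SE), edgeR adjusted p = 1.1e-07). Scarb2 (the receptor that delivers glucocerebrosidase to the lysosome) had 375, 312 and 312 CPM in Cx3cr1+ macrophages, against 115, 112 and 115 CPM in monocytes (log2 fold change 1.54 ± 0.14 (SE), edgeR adjusted p = 3.0e-08). In none of the 3 genes did these values overlap. Smpd1, at 6.38, 10.8 and 8.86 CPM in monocytes, was likewise below Timd4+ macrophages (log2 fold change 2.01 ± 0.16 (SE), edgeR adjusted p = 6.5e-10).

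Monocytes exceeded macrophages in a few genes. Gm2a was lower in Timd4+ macrophages (log2 fold change -1.78 ± 0.17 (SE), edgeR adjusted p = 1.3e-08) and in Cx3cr1+ macrophages (-0.62 ± 0.16 (SE), edgeR adjusted p = 0.0058), the last call being lost without Cd11cYFP replicate 1 (-0.53, edgeR adjusted p = 0.0926). Npc2 was lower in Timd4+ macrophages than in monocytes (1691, 1346 and 1517 CPM, log2 fold change -0.71 ± 0.14 (SE), edgeR adjusted p = 3.4e-04). Arsb, at 23, 24.1 and 43.6 CPM in monocytes, was lower in Timd4+ macrophages (log2 fold change -0.83 ± 0.24 (SE), edgeR adjusted p = 0.00621), a call lost without Cd11cYFP replicate 2 (-0.59, edgeR adjusted p = 0.169). Gusb (-0.27) and Tfeb were the other genes lower in Timd4+ macrophages.

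Among the regulators, Tfeb was lower in Timd4+ macrophages than in monocytes (log2 fold change -0.39 ± 0.15 (SE), edgeR adjusted p = 0.0366), and the call was lost when any 1 library was left out (-0.35 to -0.44, edgeR adjusted p = 0.0670 to 0.203). In Cx3cr1+ macrophages Tfeb did not pass (log2 fold change -0.32 ± 0.14 (SE), edgeR adjusted p = 0.1). Tfe3, at 65.8, 57.8 and 56.1 CPM in monocytes, did not pass in either macrophage class (log2 fold change 0.06 ± 0.10 (SE), edgeR adjusted p = 0.781 in Timd4+ and 0.02 ± 0.10 (SE), edgeR adjusted p = 0.942 in Cx3cr1+ macrophages). Mcoln1, at 8.94, 13.6 and 17.7 CPM in monocytes, passed in Timd4+ macrophages (log2 fold change 0.56 ± 0.20 (SE), edgeR adjusted p = 0.0282) but not without MAFIA replicate 2 (0.41, edgeR adjusted p = 0.176) or without Cd11cYFP replicate 1 (0.63, edgeR adjusted p = 0.0875), and it did not pass in Cx3cr1+ macrophages (0.43 ± 0.20 (SE), edgeR adjusted p = 0.107). Neither Tfeb nor Tfe3 was thus called higher in a macrophage class than in monocytes. This does not extend to their relatives Tfec and Mitf, which were read from a list for comparison. Both were called higher than in monocytes in Timd4+ macrophages (median log2 fold change of the 2 genes 0.98) and in Cx3cr1+ macrophages (1.21).

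Membrane and pump genes behaved likewise in part. Lamp1, at 683, 558 and 751 CPM in monocytes, was higher in Timd4+ (log2 fold change 0.96 ± 0.15 (SE), edgeR adjusted p = 1.4e-05) and in Cx3cr1+ macrophages (1.005 ± 0.15 (SE), edgeR adjusted p = 2.2e-05). Lamp2, at 296, 233 and 270.4 CPM in monocytes, was higher in Cx3cr1+ macrophages (0.66 ± 0.13 (SE), edgeR adjusted p = 5.3e-04) and did not pass in Timd4+ macrophages (0.28 ± 0.13 (SE), edgeR adjusted p = 0.0924), except without MAFIA replicate 2 (0.44, edgeR adjusted p = 0.00442). Atp6v0d1, at 136, 102 and 119.8 CPM in monocytes, was higher in both (Timd4+ 0.47 ± 0.11 (SE), edgeR adjusted p = 0.00102, Cx3cr1+ 0.50 ± 0.11 (SE), edgeR adjusted p = 0.00107).

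For Atp6v0d2 a single monocyte library stood apart. It had 2.37, 1.67 and 66 CPM in monocytes, where the value of Cd11cYFP replicate 2 was as high as in macrophages and the other 2 were near 2 CPM. In that library the Cx3cr1+ macrophage markers were also highest among the monocytes (643.7 CPM), and the part of these cells in the value was not tested. The fitted log2 fold changes were 1.65 ± 0.67 (SE), edgeR adjusted p = 0.0492 for Timd4+ and 2.25 ± 0.68 (SE), edgeR adjusted p = 0.0157 for Cx3cr1+ macrophages, but the sign was not the same in every library. Both calls were lost without MAFIA replicate 2 (1.14, edgeR adjusted p = 0.220 and 1.30, edgeR adjusted p = 0.204) and without Cd11cYFP replicate 1 (0.83, edgeR adjusted p = 0.479 and 1.38, edgeR adjusted p = 0.297). Without Cd11cYFP replicate 2 itself they were 4.503 (edgeR adjusted p = 1.0e-06) for Timd4+ and 5.37 (edgeR adjusted p = 1.4e-06) for Cx3cr1+ macrophages, and with likely doublets removed 3.03 (edgeR adjusted p = 3.2e-05) and 3.73 (edgeR adjusted p = 6.1e-06).

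**Figure D4:**
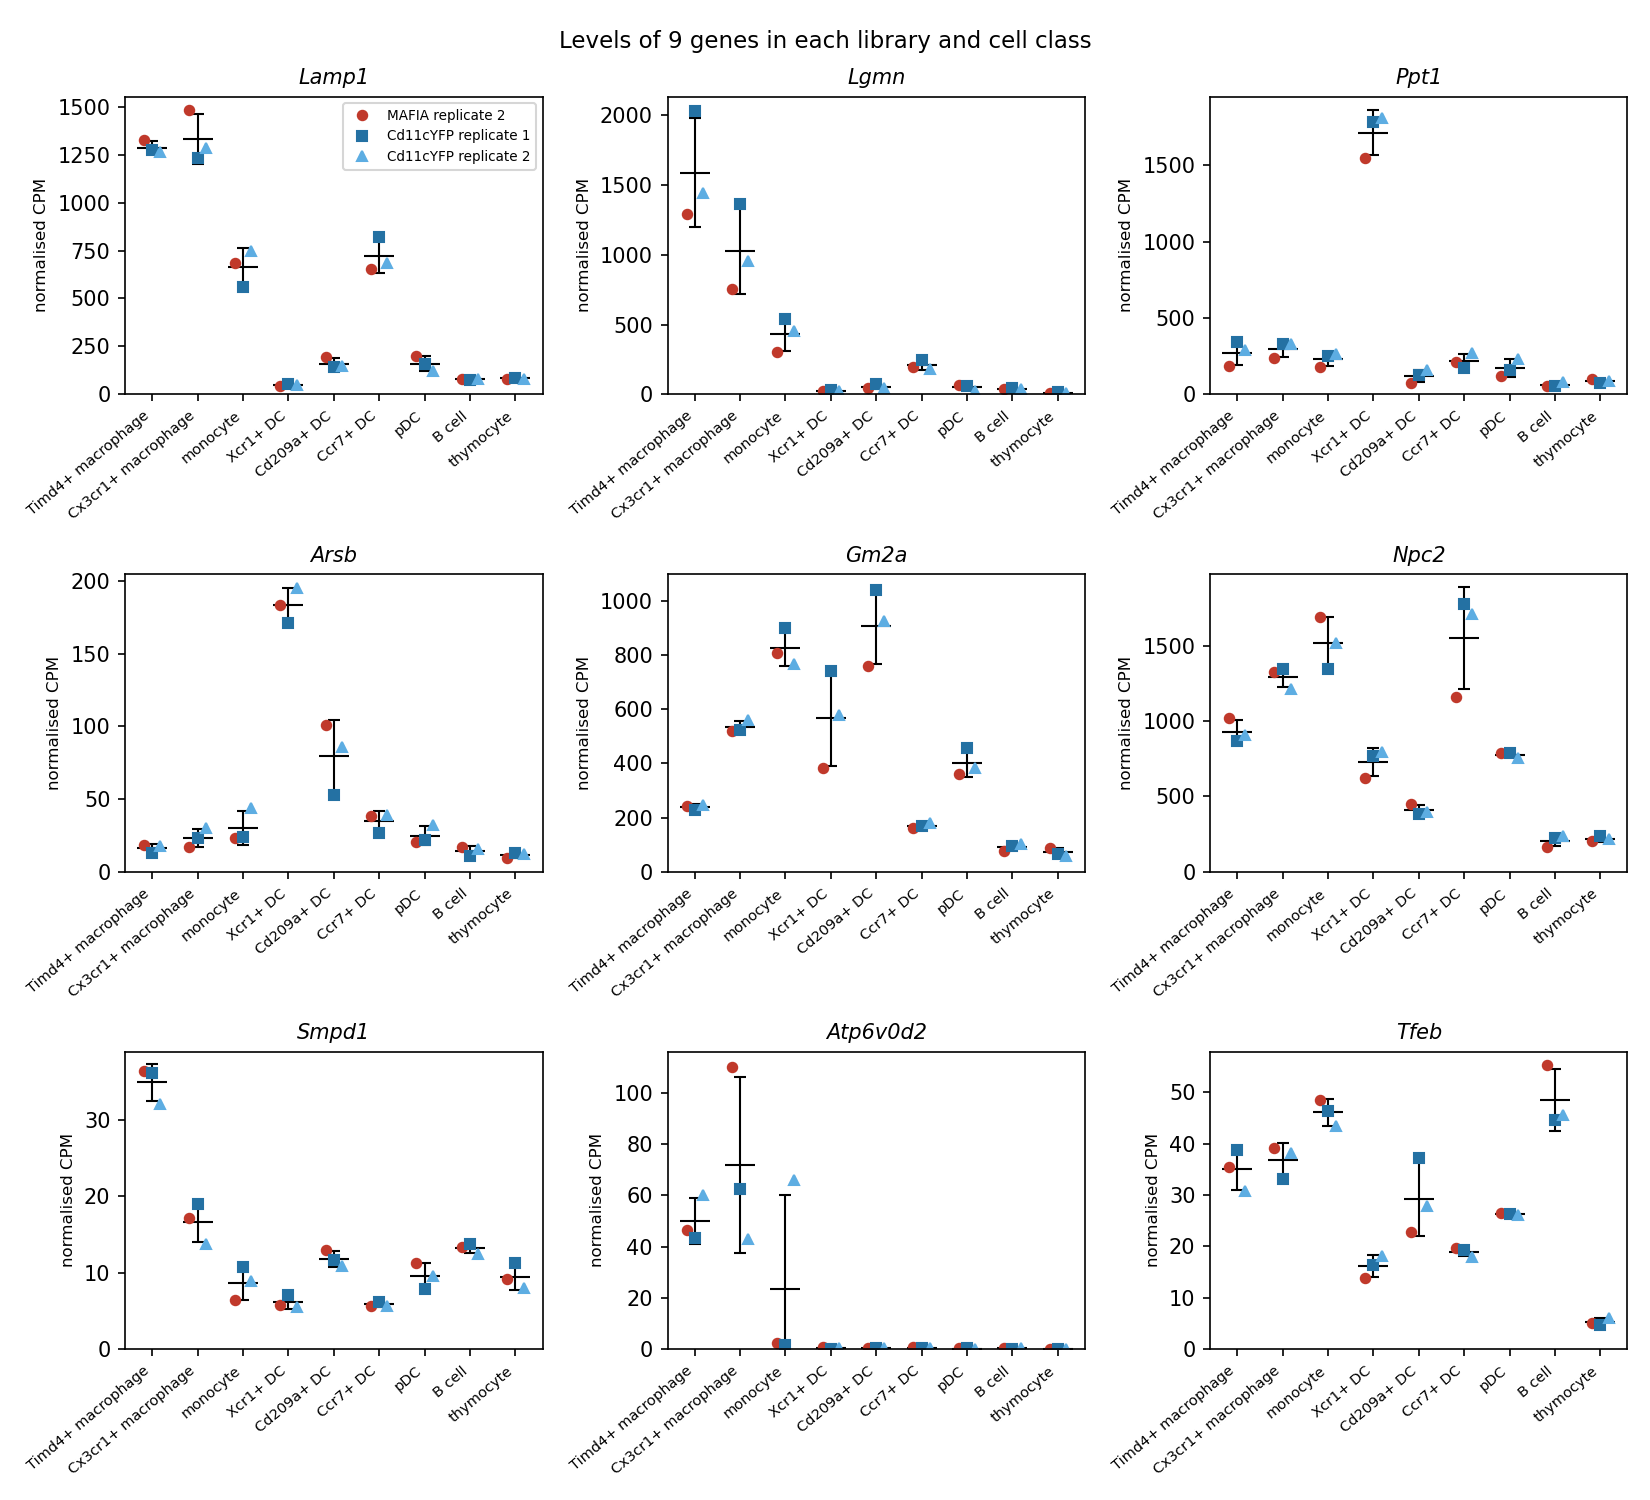
Level in TMM-normalised CPM (y axes, linear, each with its own scale) of 9 of the genes in each cell class (x axes), with a point for each library, a horizontal bar for the mean and whiskers for the SD (n = 3). Lamp1 is high in macrophages and in Ccr7+ DCs but lowest in Xcr1+ DCs, Ppt1 stands at 1544 to 1809 CPM in Xcr1+ DCs alone, and the monocyte value of Atp6v0d2 in Cd11cYFP replicate 2 lies apart at 66.0 CPM.

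Ccr7+ DCs, which express the markers of DCs that have matured and migrate, were compared with the mean of Xcr1+ and Cd209a+ DCs. Samples of all these DC classes, Ccr7+ DCs included, also formed the DC side of the macrophage comparison above. In Ccr7+ DCs 14 of the 37 genes were higher, 15 were lower and 8 did not pass, while 31.1% of all genes were called higher and 29.6% lower (60.7% in all). The median log2 fold change of the 37 was -0.04, beside 0.04 over all genes. As a list they stayed level, but single members moved far in both directions. All 4 sphingolipid hydrolases and activators were lower, as were 5 of 10 glycosidases, whereas 4 of 8 pump subunits were higher.

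Lamp1 moved most, with 654, 821 and 686 CPM in Ccr7+ DCs, against 40.6, 54.2 and 47.1 CPM in Xcr1+ and 192, 141 and 145 CPM in Cd209a+ DCs (log2 fold change 3.06 ± 0.12 (SE), edgeR adjusted p = 4.7e-15). At equal depth 77.5 ± 4.2% of Ccr7+ DCs had a Lamp1 UMI (98.0% unthinned). Lgmn had 196, 245 and 183 CPM in Ccr7+ DCs, against 20.2, 28.8 and 20.6 CPM in Xcr1+ and 42.9, 70.4 and 42.5 CPM in Cd209a+ DCs (log2 fold change 2.60 ± 0.17 (SE), edgeR adjusted p = 8.6e-12). Neither gene had overlapping values. Lamp1 in Ccr7+ DCs overlapped its level in monocytes, while Lgmn stayed below every monocyte value.

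Gaa and Npc2 were also higher. Gaa had 68.1, 47.8 and 47 CPM in Ccr7+ DCs, against 9.43, 9.45 and 8.73 CPM in Xcr1+ and 24.4, 16.4 and 15.4 CPM in Cd209a+ DCs (log2 fold change 2.04 ± 0.14 (SE), edgeR adjusted p = 1.7e-11). Npc2 had 1162, 1778 and 1712 CPM in Ccr7+ DCs, against 622, 764 and 797 CPM in Xcr1+ and 449, 385 and 394 CPM in Cd209a+ DCs (log2 fold change 1.501 ± 0.12 (SE), edgeR adjusted p = 3.1e-10). For Npc2 the Ccr7+ DC mean was the highest of all classes, overlapping that of monocytes. Lamp2 (128, 95.1 and 108 CPM in Ccr7+ DCs, log2 fold change 0.46 ± 0.11 (SE), edgeR adjusted p = 0.001) and Atp6v0d1 (159, 111 and 119 CPM, 0.44 ± 0.09 (SE), edgeR adjusted p = 1.8e-04) were raised less.

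Lower in Ccr7+ DCs were Gm2a, Arsb, Man2b1 and Lipa. Gm2a had 162, 170.0 and 179 CPM in Ccr7+ DCs, against 385, 741 and 579.6 CPM in Xcr1+ and 759, 1040.2 and 928 CPM in Cd209a+ DCs (log2 fold change -2.06 ± 0.16 (SE), edgeR adjusted p = 1.2e-10). Arsb had 38.2, 26.7 and 39.1 CPM in Ccr7+ DCs, against 183, 171 and 196 CPM in Xcr1+ and 101, 53 and 86.1 CPM in Cd209a+ DCs (log2 fold change -1.81 ± 0.18 (SE), edgeR adjusted p = 1.3e-08). Man2b1 (alpha-mannosidase) had 108, 85.1 and 101 CPM in Ccr7+ DCs, against 485, 425 and 432 CPM in Xcr1+ and 239, 261 and 218 CPM in Cd209a+ DCs (log2 fold change -1.74 ± 0.10 (SE), edgeR adjusted p = 2.1e-12). For each of these genes every Ccr7+ DC value lay below every value of the other 2 DC classes. Lipa had 31, 21.2 and 27.7 CPM in Ccr7+ DCs, against 73.4, 72.3 and 67.7 CPM in Xcr1+ and 42.9, 45 and 46 CPM in Cd209a+ DCs (log2 fold change -1.09 ± 0.17 (SE), edgeR adjusted p = 6.3e-06).

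Of the regulators, Tfe3 was higher in Ccr7+ DCs (70.3, 51.5 and 51.8 CPM, log2 fold change 0.78 ± 0.08 (SE), edgeR adjusted p = 1.1e-08), with every value above those of Xcr1+ and Cd209a+ DCs. Tfeb had 19.6, 19.3 and 17.9 CPM in Ccr7+ DCs and did not pass (log2 fold change -0.21 ± 0.12 (SE), edgeR adjusted p = 0.158), although it was lower without MAFIA replicate 2 (-0.35, edgeR adjusted p = 0.0122). Mcoln1 had 10.1, 10.7 and 8.57 CPM in Ccr7+ DCs and was higher (log2 fold change 0.46 ± 0.16 (SE), edgeR adjusted p = 0.0136), a call lost without MAFIA replicate 2 (0.38, edgeR adjusted p = 0.0534). Atp6v0d2 stayed at 0.679, 0.33 and 0.306 CPM in Ccr7+ DCs, a range that overlapped that of B cells (0.59, 0.273 and 0.308 CPM), and did not pass (log2 fold change -0.09 ± 1.24 (SE), edgeR adjusted p = 0.962).

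Other lysosomal genes were read from lists for comparison. Against classical DCs, macrophages had 22 of 26 other hydrolases higher (median log2 fold change 1.56), 20 of 21 other membrane proteins higher and 1 lower (1.48), and 10 of 15 other pump subunits higher and 2 lower (0.81). Of the genes that sort hydrolases 15 of 19 were higher and 1 lower (0.54), and of those that sense nutrients at the lysosome 8 of 16 were higher and 5 lower (0.19). Among the largest were those of Pld3, an endolysosomal nuclease (log2 fold change 6.42 ± 0.20 (SE), edgeR adjusted p = 1.1e-17), Acp5, an acid phosphatase of osteoclasts and macrophages (5.66 ± 0.15 (SE), edgeR adjusted p = 1.1e-18), and Dmxl2, a partner in pump assembly (5.73 ± 0.20 (SE), edgeR adjusted p = 1.2e-16). Tfec and Mitf, the relatives of Tfeb and Tfe3, were both far higher in macrophages (Tfec 6.73 ± 0.19 (SE), edgeR adjusted p = 1.9e-18, Mitf 3.71 ± 0.11 (SE), edgeR adjusted p = 7.4e-18).

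Between Timd4+ and Cx3cr1+ macrophages the lists were split, with 7 higher and 6 lower of 26 other hydrolases, 8 and 4 of 21 membrane proteins, 5 and 2 of 15 pump subunits, 7 and 4 of 19 sorting genes and 1 and 3 of 16 nutrient-sensing genes. Igf2r, the receptor that carries mannose 6-phosphate-tagged hydrolases to lysosomes (log2 fold change 2.41 ± 0.36 (SE), edgeR adjusted p = 1.5e-05), and Sort1, another sorting receptor (2.40 ± 0.25 (SE), edgeR adjusted p = 1.7e-07), were higher in Timd4+ macrophages. Cd63, a lysosomal tetraspanin (-1.43 ± 0.25 (SE), edgeR adjusted p = 9.4e-05), and Tcirg1, a pump subunit of osteoclasts (-0.68 ± 0.21 (SE), edgeR adjusted p = 0.014), were lower there. Mitf and Tfec did not pass. In Ccr7+ against the other DCs, Cd63 (5.63 ± 0.22 (SE), edgeR adjusted p = 3.2e-15), the Rag GTPase gene Rragd (5.40 ± 0.25 (SE), edgeR adjusted p = 4.1e-14) and Laptm4b (3.89 ± 0.16 (SE), edgeR adjusted p = 5.2e-15) were the most raised of these lists.

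Reporter lines were compared last, for the change between Timd4+ and Cx3cr1+ macrophages. By the edgeR interaction of class and reporter, 0 of 37 genes passed (smallest adjusted p = 0.414), and 6 had an unadjusted p under 0.05, beside 0.0431% and 7.51% of all genes. This test rests on 1 MAFIA library against 2 Cd11cYFP libraries. Across classes, Gla (alpha-galactosidase A) and Atp6v1h lay below both Cd11cYFP values in the MAFIA library in all 9 classes, as did 4.28% of all genes. Gla averaged 13.4 CPM over the classes in the MAFIA library, against 32.0 CPM in the Cd11cYFP libraries, and Atp6v1h 42.4 CPM, against 57.8 CPM. None of the 37 lay above both Cd11cYFP values in all 9 classes, beside 4.2% of all genes. These offsets between lines were not tested, and for Gla the 548447 UMIs of the opposite-strand gene Rpl36a, which overlaps it, stand beside 10015 UMIs of its own.

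Position in the genome and gene overlap limit some of these values. On GRCm39 the 37 genes lie on 17 chromosomes, with 7 on chromosome 8 and 5 on chromosome X. A gene on the opposite strand overlaps 23 of them, and a gene on the same strand overlaps 5. Atp6v0c has 2 pseudogene copies in the gene list, both with 0 UMIs, beside 3153 UMIs for Atp6v0c itself, so its low level is uncertain. Between 2921 and 729550 UMIs were counted per gene over the 9 classes, and 36 of the 37 had a UMI in every class and library, the exception being Atp6v0d2, which had none in the pDCs of Cd11cYFP replicate 2.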

How the data were processed

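The files deposited by the authors were matrices of UMI counts, 1 for each of 2 MAFIA and 2 Cd11cYFP samples (10x 3' chemistry). The counts were not normalized, and cells had been called by the authors. Per the submitters' processing notes, STAR 2.7.9a, Cell Ranger and bcl2fastq were used. The build is mm39 (GRCm39) in these notes and mm10 in the published methods, so which genome was used is not settled. Identifiers were looked up in the GENCODE annotation of GRCm39 (54749 of 55418 found), and promoters came from RefSeq on GRCm38.p6. No fold-change or p-value columns were in the files.

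Cells with 1000 to 7000 genes and at most 10% mitochondrial UMIs were kept. After scaling to 10000 per cell and log transformation, 2000 variable genes were chosen without the 37 genes and the pathway lists. A graph on 70 principal components with 5 neighbours from each library was partitioned with Leiden (resolution 1, leidenalg 0.10.2, Python 3.11.15). Clusters were named from fixed marker lists, and the cut-offs of that naming were chosen once the clusters had been seen. Doublets were kept, and the cells with the highest Scrublet scores (316, 470 and 754) were removed in an alternative. UMI counts were summed per class and library (27 sums of 1571540 to 63092840 UMIs) and tested in edgeR 4.0.16 (R 4.3.3) with TMM, filterByExpr, the quasi-likelihood F test, terms for class and library, and adjustment over 16247 genes at 0.05. All 37 genes passed the filter. Classes of a library come from the same sorted cells, so the library term pairs them. The common biological coefficient of variation was 0.141 with 16 residual degrees of freedom.

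Values in every library and full statistics were given for Tfeb, Tfe3, Mcoln1, Lamp1, Lamp2, Atp6v0d1, Atp6v0d2 and, per comparison and direction, for the 4 genes past the threshold with the largest change and the same sign in all 3 libraries. From each pathway list up to 2 genes per comparison and direction were eligible. The result of 1 listed gene is not reported here. The genes and lists were chosen with earlier results of these data known. Further genes were named after their values were seen. For counts simulated for Timd4+ against Cx3cr1+ macrophages (15832 genes), 89 of 100 planted log2 changes of 1 and 97 of 100 of 2 were recovered, and 11 of 197 calls were false. Alternatives were DESeq2 1.42.0, its size factors, no low-count filter, no library term, leaving out each library, other resolutions, a 5% mitochondrial limit, the 37 genes kept in clustering, doublets removed, MAFIA replicate 1 included, and only the classes compared.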

Additional observations from a re-analysis of the deposited data

Results flagged for a closer look

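MAFIA replicate 1 was used in no class comparison, and it too held a clear signal of these genes. They made up 0.669% of all UMIs in its kept cells, beside 0.652% in MAFIA replicate 2 and 0.606 and 0.592% in Cd11cYFP replicates 1 and 2, and all 37 had a UMI there. The value is over all its cells, without classes, and was picked out because this library stood outside the comparisons.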

How the results depend on the processing

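Of 68 results for single genes, 50 kept their direction and their side of the threshold under every alternative run, 13 of the 55 past the threshold lost it under some, 5 of the 13 others passed under some, and 0 reversed. Over the fits that leave out 1 library, genes higher in Timd4+ than in Cx3cr1+ macrophages numbered 5 to 10 (9 with all libraries) and lower ones 4 to 8 (7). Genes lower in Timd4+ macrophages than in monocytes numbered 2 to 6 (5), and 3 with DESeq2, with its size factors, without the low-count filter or with likely doublets removed. Genes lower in Cx3cr1+ macrophages than in monocytes numbered 0 to 1 (1), and 2 with doublets removed or with only the classes compared. Genes lower in macrophages than in classical DCs numbered 2 to 3 (4), and 2 with doublets removed. The share of UMIs from the 37 genes in Cx3cr1+ macrophages was 1.33% at the lower clustering resolution and 1.47% with doublets removed (1.39%). In Xcr1+ DCs it was 0.653% with MAFIA replicate 1 included in the clustering (0.688%). In Cd209a+ DCs it was 0.423% at the lower clustering resolution and 0.431% with MAFIA replicate 1 included in the clustering (0.411%). All these shares are means over the other 3 libraries only. The log2 fold change of Atp6v0d2 against monocytes moved most, to 5.66 in Timd4+ and 5.95 in Cx3cr1+ macrophages at the lower resolution and to 5.22 and 5.82 with MAFIA replicate 1 included. The causes were not tested.

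Classes were paired by library in the tests above. Without the replicate block 6 genes were higher and 6 lower in Timd4+ than in Cx3cr1+ macrophages, and 20 higher and 4 lower in Timd4+ macrophages than in monocytes. Lgmn between the macrophage classes (0.63, edgeR adjusted p = 0.150), Mcoln1 in Timd4+ macrophages against monocytes (0.53, edgeR adjusted p = 0.0595), Atp6v0d2 in both macrophage classes against monocytes (1.23 and 1.76, edgeR adjusted p = 0.209 and 0.106) and Ppt1 in macrophages against classical DCs (-0.32, edgeR adjusted p = 0.119) then no longer passed. Without the low-count filter the median of all genes in Cx3cr1+ macrophages against monocytes moved to 0.15 (0.05 with it), and 67.4% of calls were higher (54.5%). In Ccr7+ DCs against the other DCs it moved to 0.10 with DESeq2 size factors and 0.11 with DESeq2 (0.04).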
